A study of Mus musculus with 2 samples.

Results

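The genes of the cytosolic ribosomal proteins were followed in 2 teratoma RNA-seq libraries. Members were the protein-coding rows whose symbol is Rpl or Rps followed by a number (with an optional a, x, y or l), together with Rplp0, Rplp1, Rplp2 and Rpsa, leaving out Rps27l. This gave 80 of the 45777 genes in the deposited table, 50 of the large and 30 of the small ribosomal subunit. A total of 78 members reached 10 TPM, a level corrected for transcript length and library size, in 1 library or both, and 76 reached it in both. All genes that reached 10 TPM in 1 library or both, 11578 in number, are called expressed genes, and the 76 members are called the main members.

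The study asked what an O-GlcNAc-deficient Sox2 does in mouse embryonic stem cells (ESCs). One library came from a teratoma of E14 cells, a mouse ESC line, and 1 from a teratoma of E14-Sox2TA/WT cells, in which CRISPR/Cas9 had put T258A into 1 allele of Sox2 and left the other wild type. The edited cells were grown from single cells, so a difference between the libraries can also be one between clones, and the 2 cannot be told apart here. Both cell types were injected into BALB/c-nu mice, 3 per group, and tumours were harvested after 14 days, when the tissue also holds host stroma and vessels. Whether a library holds 1 or several teratomas is not given in the sources used here, and the sample labels name teratoma as tissue but an ESC line in the protocol. With 1 library per group no difference has a replicate check, no p-value is given, and the 95% intervals printed after the values were computed from the reads by the Clopper-Pearson method and cover counting error only. The libraries held 50529171 (E14) and 49030281 (E14-Sox2TA/WT) reads on genes.

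A cytosolic ribosome holds 1 copy of most of its proteins, so cells make the subunits' proteins in nearly matched amounts. The small subunit reads the mRNA, and the large subunit joins the amino acids. The acidic proteins of the large subunit stalk (Rplp0, Rplp1, Rplp2) recruit the translation factors. Many mRNAs of ribosomal proteins start with a run of pyrimidines, the TOP motif, through which mTORC1 signaling adjusts their translation rather than their amount. Several members have a paralog that is used in particular tissues, above all in male germ cells, and processed pseudogenes of the family are scattered over the mouse genome.

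The letters around the transcription start were searched for a pyrimidine run, and are shown for members that the later results turn on. The windows below hold 10 bases before and 20 bases from an annotated start in RefSeq on GRCm38.p6. Capitals mark the longest run of at least 6 pyrimidines that touches the stretch from 5 bases before to 10 bases after that start. Rps12, Rps18 and Rpl12 were among the highest ratios, Rps9 was the lowest, and Rpl10 and Rpl39 are shown with their paralogs Rpl10l and Rpl39l.
Rps12, chr10:23787190-23787219, minus strand: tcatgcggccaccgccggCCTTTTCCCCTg
Rps18, chr17:33955646-33955675, minus strand: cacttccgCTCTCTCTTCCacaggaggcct
Rpl12, chr2:32961702-32961731, plus strand: agcaggatccgTCTTTTCggctttcggctc
Rps9, chr7:3704031-3704060, plus strand: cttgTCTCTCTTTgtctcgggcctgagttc
Rpl10, chrX:74270806-74270835, plus strand: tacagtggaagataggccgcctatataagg
Rpl10l, chr12:66284382-66284411, minus strand: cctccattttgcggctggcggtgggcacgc
Rpl39, chrX:37085203-37085232, minus strand: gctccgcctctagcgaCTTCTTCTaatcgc
Rpl39l, chr16:10170218-10170247, plus strand: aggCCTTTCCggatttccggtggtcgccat
Rpl10 and Rpl10l have no such run in these windows, while Rpl39 and Rpl39l have one. The run of Rpl39l lies wholly before the start used for its window, and those of Rps12, Rpl12 and Rpl39 begin downstream of theirs. For Rps12, Rps9 and Rpl39l the start used lies inside the gene span printed further below, not at its edge. A run counted here is therefore not always a TOP motif at the annotated start. Start windows were given for 60 members, and 34 of these (56.7%) held such a run, against 27.7% of 8726 other expressed genes that had a window and 27.6% of all 27025 genes. Within 250 bases before and 50 after the start, searched on both strands, the Ets-type motif CCGGAAGT was in 18.3% of the members and 9.75% of the other expressed genes. The E-box CACGTG was in 10% and 11.9%, and TATAAA in 11.7% and 8.86%. Neither ATGCAAAT, the octamer, nor CATTGTT, a Sox-type motif, was in any of the 60 members' windows, and they were in 1.52% and 2.22% of the other expressed genes. These letters are a description of the windows and not of binding.

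The ribosomal protein genes as a group kept close to their level in E14, with a small shift towards the E14-Sox2TA/WT teratoma library that reversed when transcript length was corrected for. In all, 59 of the 78 expressed members had the higher TPM in E14-Sox2TA/WT and 19 the lower, where 41% of all expressed genes were higher. The median log2 ratio (E14-Sox2TA/WT over E14, with 1 added to each TPM) was 0.18 over the members and -0.18 over all expressed genes, and 71 of 78 members lay above the latter. Only Rpl10l and Rpl39l were more than 2-fold higher, and no member was more than 2-fold lower, where 10.8% and 18.7% of all expressed genes were. At a 1.5-fold change, 6 members were higher and 3 lower, where 18.2% and 32.3% of all expressed genes were. In a bulk sample, fewer cells of a type and less RNA per cell cannot be told apart.

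The size of the shift depended on the scaling, and its direction on a correction for transcript length. Reads scaled by library total gave a median of 0.39 over the members and 0.01 over all expressed genes, with 72 of 78 members higher. FPKM gave 0.38 and 0.01, and edgeR's TMM factors gave 0.26 and -0.12. The members lay 0.37 above all expressed genes under each of these scalings and under TPM. This gap could hardly differ, since such scalings change all genes of a library by nearly the same factor. After a correction for transcript length and GC content over all expressed genes, which kept their median at -0.18, the members' median was -0.31, and 25 of the 76 main members lay above the median of all. Corrected for length alone the members' median was -0.24, and for GC content alone it was 0.25. Members are short, with a median transcript of 785.5 nt against 2778 nt for all expressed genes.

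**Figure D1:**
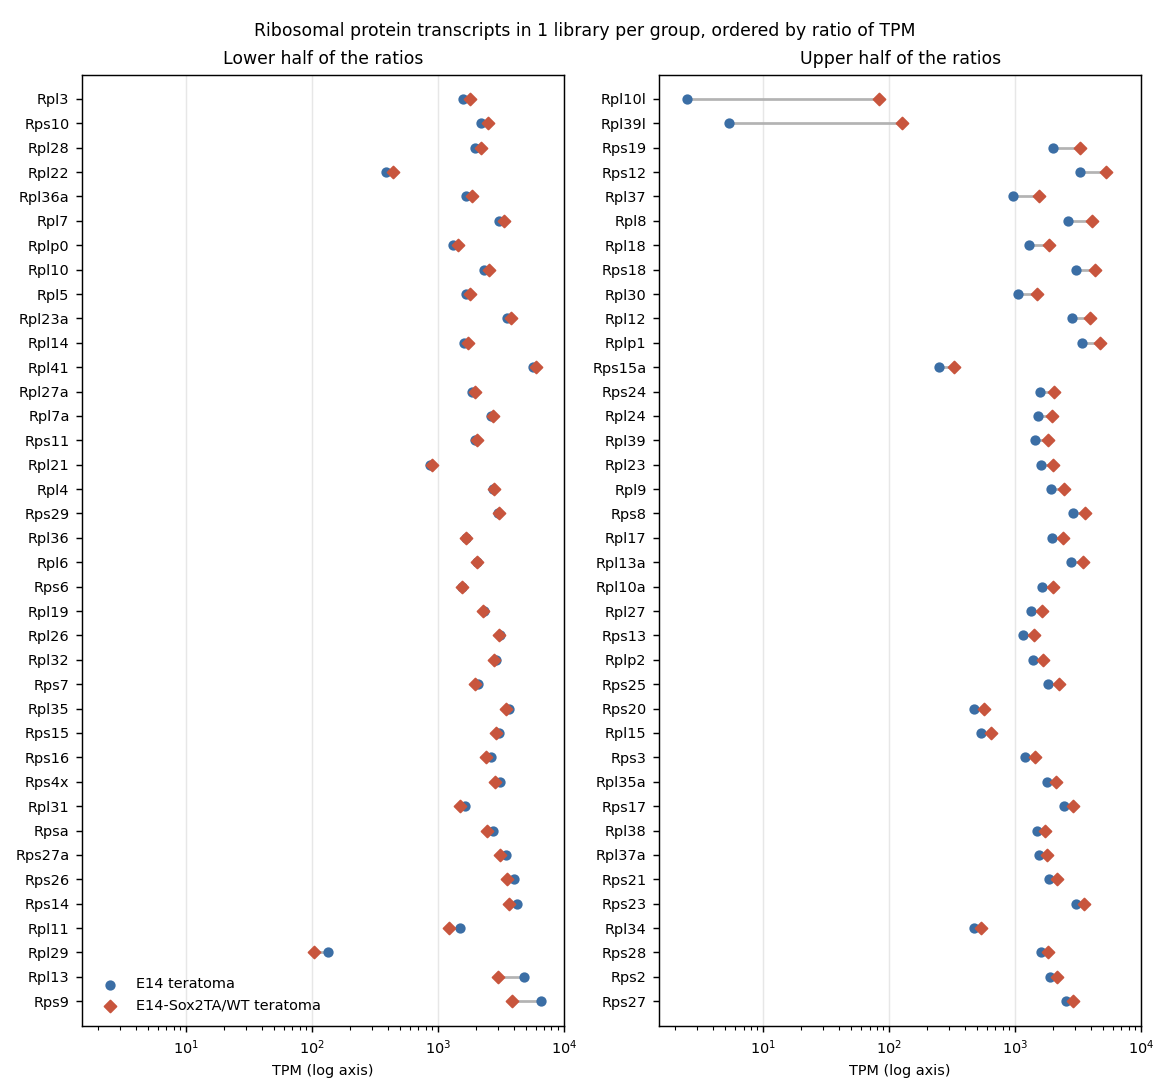
TPM (log axis) of 76 of the 78 expressed ribosomal protein genes in the E14 (blue circles) and E14-Sox2TA/WT (red diamonds) teratoma libraries, ordered by the ratio of TPM from bottom to top and from the left to the right panel. Most pairs nearly touch, Rps9 and Rpl13 are lower in E14-Sox2TA/WT, and Rpl10l and Rpl39l stand far to the left in E14.

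The members were among the most abundant transcripts of both teratomas. The 76 main members ranged from 133.9 to 6649 TPM in E14, with a median of 1965, and from 104.5 to 6040 TPM in E14-Sox2TA/WT, with a median of 2156. In both libraries, 68 of them were above 1000 TPM. The order of their levels was much alike, with a Spearman correlation of 0.92 over the 76 genes, which share library and transcript length. All 80 members together made up 16.8% of all TPM in E14 and 18.1% in E14-Sox2TA/WT. They took 6.25% of the reads in E14 (6.25% to 6.26%) and 7.68% in E14-Sox2TA/WT (7.68% to 7.69%), less than their share of TPM because their transcripts are short. Transcripts of the mitochondrial genome, which share the same total, made up 5.17% and 9.70%. Without these and without hemoglobin genes the members held 17.7% and 20.1%.

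The ratios of the members were also close to each other. Their log2 ratios ran from -0.77 to 0.71 over the 76 genes with an interquartile range of 0.27, against 1.10 over all expressed genes. Within 1.5-fold of their E14 level lay 69 of them, or 90.8%, with 4 above and 3 below. Since abundant genes could vary less in general, the 597 other nuclear genes with a mean TPM of at least 200 were set beside them. These had a median of 0.06 and an interquartile range of 0.77, with 66.8% within 1.5-fold. They include ribosomal protein rows that the symbol rule leaves out, such as Rps3a1, Fau and Rpl34-ps1. Among genes with a transcript under 1000 nt, the median was 0.19 over 53 members and 0.14 over 153 other abundant genes, whose interquartile range was 0.72. At 1000 nt or more it was 0.14 over 23 members and 0.04 over 398 other genes. After the correction for length and GC content, the median was -0.32 over the 76 main members and -0.20 over the other abundant genes. Over the other abundant genes under 1000 nt it was -0.41, lower than over the 76 main members of all lengths. A corrected median of the members under 1000 nt alone was not computed. Within the members, the log2 ratio had a Spearman correlation of -0.09 with transcript length over 76 genes.

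**Figure D2:**
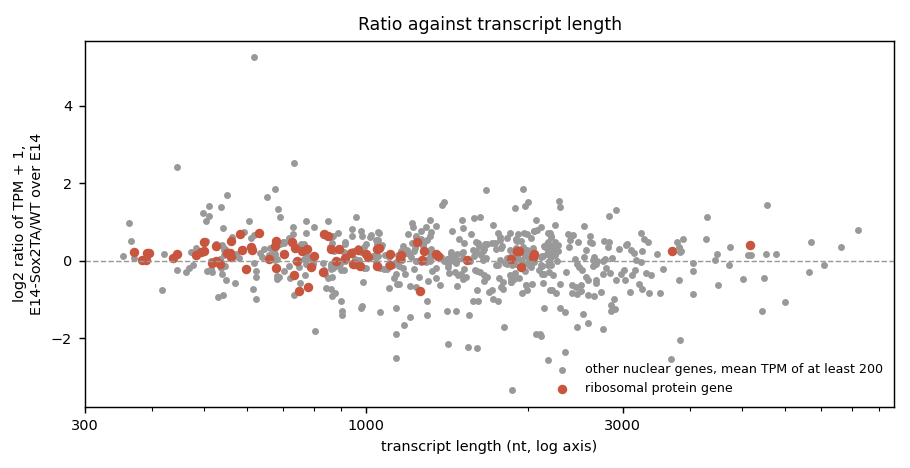
Log2 ratio of TPM + 1 (E14-Sox2TA/WT over E14) against transcript length in nt (log axis) for 76 ribosomal protein genes (red) and the other nuclear genes with a mean TPM of at least 200 and a known length (grey). The red points form a narrow band from -0.77 to 0.71, inside the wider scatter of the grey points.

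The most abundant members served both subunits. Rpl41, whose protein is among the shortest known, had 62082 reads and 5746 TPM in E14 and 72869 reads and 6040 TPM in E14-Sox2TA/WT, a ratio of 1.05 (1.04 to 1.06). Rps9, a small subunit protein that binds the rRNA early in assembly, had 6649 and 3887 TPM. Rps12 had 3269 and 5293 TPM, and Rplp1, an acidic protein of the stalk, had 3386 and 4703 TPM. Rps14, a protein of the platform of the small subunit, had 4253 and 3692 TPM. These 5 genes did not move together, since the ratio was below 1 in Rps9 and Rps14 and above 1 in the others.

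The subunits had similar medians. Among the 46 main members of the large subunit, 37 were higher in E14-Sox2TA/WT and the median log2 ratio was 0.16. Among the 30 of the small subunit, 20 were higher and the median was 0.19. Corrected for length and GC content, all expressed members of the large subunit had a median of -0.29 and those of the small subunit of -0.42. The large subunit held 55.6% of the TPM of these 76 genes in E14 and 56.5% in E14-Sox2TA/WT. Within the stalk, the 3 members were all higher in E14-Sox2TA/WT. Rplp0, the base of the stalk, had 1327 and 1450 TPM (ratio 1.09), Rplp2 had 1381 and 1667 TPM (1.21), and Rplp1 had a ratio of 1.39. Rpl5 and Rpl11, which bind 5S rRNA together and can restrain Mdm2, went opposite ways, with 1677 and 1811 TPM for Rpl5 and 1514 and 1230 TPM for Rpl11. Rps6, the substrate of S6 kinase, had 1565 and 1563 TPM, a ratio of 0.998 (0.987 to 1.01).

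Outside the paralogs, the highest ratios were those of Rps19, Rps12, Rpl37 and Rpl8. Rps19, whose human counterpart is the gene most often mutated in Diamond-Blackfan anemia, lies at chr7:24884592-24889811 on the plus strand and has 6 exons. It had 26977 reads (1987 TPM) in E14 and 49522 reads (3261 TPM) in E14-Sox2TA/WT, a ratio of 1.64 (1.62 to 1.67). Rps12, at chr10:23785183-23787383 on the minus strand, had 40972 and 74079 reads, a ratio of 1.62 (1.60 to 1.64). The counting intervals of both genes lay well above 1, but the spread between tumours is not known from 1 library each. Both genes share stretches of 50 nt with other loci, 53.6% of such stretches of Rps19 and 83.2% of those of Rps12, so their counts could include reads of copies. Rps18 (3041 and 4322 TPM), Rpl12 (2853 and 3973 TPM) and Rpl18 (1302 and 1861 TPM) followed with ratios of 1.42, 1.39 and 1.43. For Rpl18 the ratio of reads scaled by library total was 1.45 where that of FPKM was 1.64. Such a gap of more than 5% between reads and FPKM was seen in 4 of the 76 genes (Rpl18, Rpl29, Rpl5 and Rps24). The other 72 were within it, and genes of the other lists were not checked in this way.

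Rps9 and Rpl13 were among the 3 members that were more than 1.5-fold lower in E14-Sox2TA/WT. Rps9, at chr7:3703954-3706897 on the plus strand with 5 exons, had 113355 reads in E14 and 73942 in E14-Sox2TA/WT, a TPM ratio of 0.584 (0.579 to 0.590). Rpl13, on chromosome 8 from 123102350 to 123105244, had 90034 and 62591 reads (4797 and 2986 TPM), a ratio of 0.623 (0.616 to 0.629). Both were also lower when reads were scaled by library total, with ratios of 0.672 and 0.716. Less far below were Rpl29 (133.9 and 104.5 TPM, ratio 0.781) and Rpl11 (0.813), which were closer to their E14 level. Both are lower in TPM, and on reads scaled by library total their ratios were 0.961 and 0.935.

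The chromosome of a member moved with its ratio on chromosomes 8 and 15. On chromosome 8, the 633 expressed genes that are no members had a median log2 ratio of -0.67, and Rpl13, which lies there, had -0.68. On chromosome 15, the 471 other expressed genes had a median of 0.27, and the 4 members there were all higher. Rpl37 (20110 and 36307 reads, 964 and 1559 TPM) had a ratio of 1.62, Rpl8 (54853 and 95291 reads, 2644 and 4114 TPM) 1.56, Rpl30 (1067 and 1488 TPM) 1.40 and Rpl3 (1581 and 1791 TPM) 1.13. Rpl8 and Rpl3 lie next to the catalytic center of the large subunit, and Rpl30 and Rpl37 are small proteins of the same subunit. A difference in the copy number of these chromosomes was not tested. Off both chromosomes, 70 members had a median of 0.18 and 53 of them were higher, where 57 of all 76 main members were.

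Rps9 had no such companion, since the other 13 members on chromosome 7 ran from 0.922 (Rps16) to 1.64 (Rps19) in their ratio of TPM. In a window of 250 kb on each side of Rps9, 8 other expressed genes had a median log2 ratio of -0.24, and 7 of them were lower in E14-Sox2TA/WT. The lowest were Mboat7 (54.5 and 32.5 TPM, ratio 0.597) and Tsen34 (153 and 111 TPM, ratio 0.723), both named after their values were seen. The median of all other genes on chromosome 7 was -0.27.

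**Figure D3:**
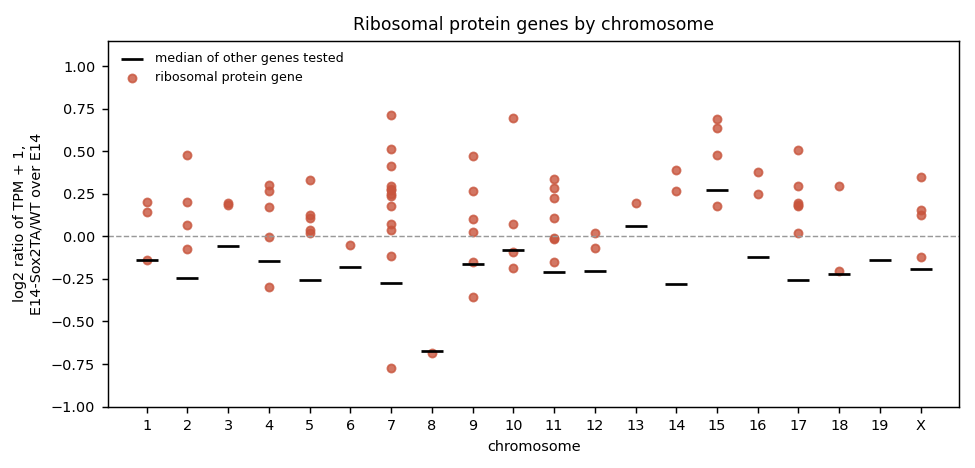
Log2 ratio of TPM + 1 (E14-Sox2TA/WT over E14) of ribosomal protein genes (red points) by chromosome, with the median of the other expressed genes of each chromosome (black bars). On most chromosomes the points lie around or above the bar, the point of Rpl13 on chromosome 8 lies near its bar at -0.67, and the 4 points of chromosome 15 lie between 0.18 and 0.69.

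The members on the X chromosome were close to their E14 level. Rpl10, a late-joining large subunit protein near the catalytic center, had 2348 and 2561 TPM (ratio 1.09). Rpl39, which lines the exit tunnel, had 1439 and 1836 TPM (1.28), and Rpl36a had 1684 and 1874 TPM (1.11). Rps4x, a small subunit protein, had 3121 and 2868 TPM (0.919). Thus 3 of the 4 X-linked members were higher. Each has an autosomal relative in the table, and those of Rpl10, Rpl39 and Rpl36a had the higher ratio of each pair. Rps4l, which the table labels a transcribed pseudogene, had 286 and 449 TPM (1.57) beside Rps4x.

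Rpl10l and Rpl39l were the members with the largest change. Both are autosomal paralogs of X-linked genes and are known for their use in the male germ line. Rpl10l, at chr12:66283379-66284401 on the minus strand with 1 exon, had 61 reads (2.47 TPM) in E14 and 2267 reads (82.5 TPM) in E14-Sox2TA/WT, a ratio of 33.4 (25.9 to 43.8). Rpl39l, at chr16:10170197-10174911 on the plus strand with 3 exons, had 104 reads (5.36 TPM) and 2622 reads (126 TPM), a ratio of 23.5 (19.3 to 28.8). Both passed the limit of 10 TPM only through the E14-Sox2TA/WT library. Neither shares any stretch of 50 nt with its parent gene in the annotated transcripts, so reads of Rpl10 or Rpl39 of that length without a mismatch could not be counted for them. Rpl10l shares 7.60% of its stretches with 1 other locus, Gm14460, and Rpl39l none. The parent genes Rpl10 and Rpl39 share 92.1% and 16.2% of theirs with other genes, so the shares of the pairs carry that uncertainty.

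Both remained minor beside their parent genes. Rpl10l held 0.105% of the summed TPM of Rpl10 and Rpl10l in E14 and 3.12% in E14-Sox2TA/WT, and Rpl39l held 0.371% and 6.40% of that of Rpl39 and Rpl39l. In reads, Rpl39l held 0.687% (0.562% to 0.832%) of its pair in E14 and 10.9% (10.5% to 11.3%) in E14-Sox2TA/WT. The parent genes were not lower, with ratios of 1.09 and 1.28. Markers of pluripotent cells moved the same way in these libraries: all 4 markers of that list were higher in E14-Sox2TA/WT, and their summed TPM was 60.4 and 1649. Pou5f1, which defines the pluripotent state, had 19.0 and 304 TPM, and Dppa5a had 29.1 and 1144 TPM. The part of such cells in the levels of Rpl10l and Rpl39l was not tested.

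The 4 paralogs of members that lie outside the symbol rule were higher as well, to different degrees. Rpl22l1, the paralog of Rpl22 and outside the symbol rule, had 2766 reads (233 TPM) in E14 and 10077 reads (763 TPM) in E14-Sox2TA/WT, a ratio of 3.28 (3.14 to 3.42). Rpl22 itself had 391 and 441 TPM, so that Rpl22l1 held 37.4% of the summed TPM of the pair in E14 and 63.4% in E14-Sox2TA/WT. In reads, where the longer Rpl22 transcript weighs more, its share was 11.8% and 27.8%. Which of the genes held more of the pair therefore changed between the libraries in TPM but not in reads. Rps27l, a p53-responsive paralog of Rps27, had 248 and 648 TPM, a ratio of 2.61 (2.50 to 2.72), and held 8.89% and 18.3% of the TPM of its pair. Rpl36al (474 and 641 TPM, ratio 1.35) and Rpl7l1 (89.9 and 121 TPM, ratio 1.35) had smaller changes, and their shares were 21.98% and 25.5% for Rpl36al and 2.86% and 3.47% for Rpl7l1. None of these 4 paralogs shares a stretch of 50 nt with its parent gene, but all share some with other genes. The shared part was 40.2% for Rpl22l1, 63.3% for Rpl36al, 17.5% for Rps27l and 9.03% for Rpl7l1.

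**Figure D4:**
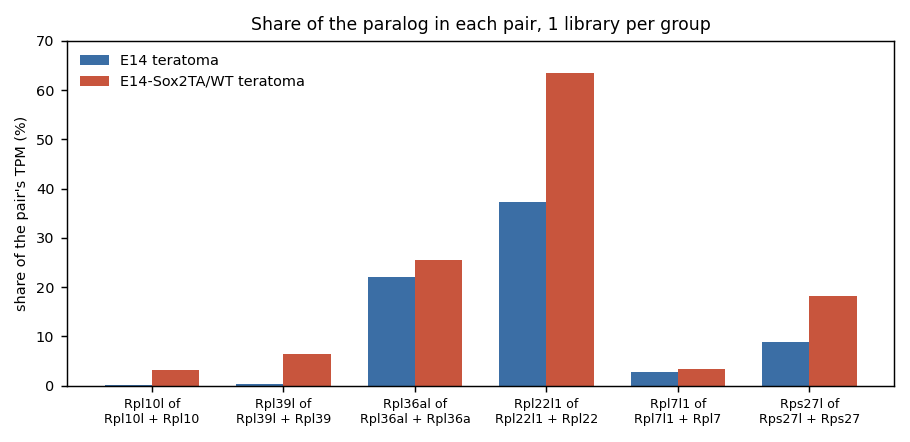
Share (%) of each paralog in the summed TPM of the paralog and its parent gene, in the E14 (blue) and E14-Sox2TA/WT (red) teratoma libraries, with 1 library per bar and no error bar. The red bar is the higher one in each of the 6 pairs, from 3.12% for Rpl10l to 63.4% for Rpl22l1.

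Rpl3l and Rpl32l were under 10 TPM in both libraries. Rpl3l, a paralog of Rpl3 that adult striated muscle uses, had 0 reads in E14, which allows up to 3, and 27 reads (0.589 TPM) in E14-Sox2TA/WT. With 3 reads taken for E14, it was 9.28-fold higher in reads scaled by library total. This value leaves out the counting error of the 27 reads, so it is not a lower bound. The 4 skeletal muscle markers had summed TPM of 318 and 155 and were all lower in E14-Sox2TA/WT. Rpl32l, a gene of 1 exon inside Map7 at chr10:20208439-20209030, had 21 and 16 reads, with a ratio of 0.677 (0.330 to 1.36). It shares 19.4% of its stretches of 50 nt with Rpl32, and at this depth no difference was detectable.

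Among the other ribosomal protein genes that the symbol rule leaves out, Rps3a1 and Fau had ratios like those of most members. Rps3a1, the gene of eS1, had 1167 and 1368 TPM (ratio 1.17), and Fau, which encodes a ubiquitin-like protein fused to eS30, had 1742 and 2044 TPM (1.17). Rps27rt, a retrotransposed copy of Rps27, had 28.6 and 59.7 TPM (2.09). Of the 8 genes of this list, 7 were higher and 1 lower, with a median log2 ratio of 0.43. The list was more widely spread, with an interquartile range of 0.89 against 0.28 over the expressed members. Of its genes, 3 were more than 2-fold higher (10.8% of all expressed genes were) and 0 more than 2-fold lower (18.7%). The list holds the paralogs above, which weighs on its median, and after the correction for length and GC content the median was 0.05. Rps27a, a member that is also made as a ubiquitin fusion, had 3454 and 3110 TPM, a ratio of 0.901.

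Genes that build the ribosome were higher more often than not. Of 57 ribosome biogenesis genes, 42 were higher and 15 lower in E14-Sox2TA/WT, 8 were more than 2-fold higher (10.8% of all expressed genes were) and 0 more than 2-fold lower (18.7%), and the median log2 ratio was 0.24, or 0.36 after the correction for length and GC content. Npm1, a nucleolar chaperone, had 866 and 2482 TPM (ratio 2.87), and Ncl, the nucleolar protein nucleolin, had 168 and 291 TPM (1.73). Nhp2, of the H/ACA snoRNPs, had 176 and 258 TPM (1.46), and Brix1, a large subunit assembly factor on chromosome 15, had 40.2 and 108 TPM (2.69). The 10 chaperones and escorts of ribosomal proteins had a median of 0.30, with 6 higher and 4 lower, and this median turned to -0.09 after the same correction. Tsr2, which carries Rps26 and lies on the X chromosome, had 50.4 and 23.5 TPM and was 2.14-fold lower.

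Translation factors were spread more widely around a like median. Of 49 factors, 31 were higher and 18 lower, with a median log2 ratio of 0.17 and an interquartile range of 0.62. The most abundant were lower: Eef1a1, which brings aminoacyl-tRNA to the ribosome, had 13476 and 9279 TPM (ratio 0.689), Eef2, the translocase, had 2335 and 1330 TPM (0.570), and Tpt1 had 5721 and 5028 TPM (0.879). The mRNAs of these 3 genes are also known TOP mRNAs. They were named for their abundance, and TOP mRNAs among the 49 factors, most of which were higher, were not compared as a set. Eef1a2, the form of neurons and muscle, had 11.7 and 1.44 TPM and was 8.09-fold lower, and the 4 neuron markers were all lower, with summed TPM of 2357 and 335. Eef1d, on chromosome 15, had 207 and 539 TPM (2.60) but 8915 and 16045 reads, a smaller rise. Of 20 regulators of TOP mRNAs and of mTORC1, 11 were higher and 9 lower, with a median of 0.12 that turned to -0.14 without chromosomes 8, 15 and Y. Cnbp, which binds TOP mRNAs, had 327 and 530 TPM. Eif4ebp1, an inhibitor of cap-dependent translation, had 67.3 and 186 TPM (2.77), although it lies on chromosome 8. Tsc1, an inhibitor of mTORC1, had 24.7 and 9.83 TPM (0.398).

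The mitochondrial ribosomal proteins, nuclear genes whose products work in another ribosome, had no common shift. Of 78 genes, 38 were higher and 40 lower, with a median log2 ratio of -0.03 and an interquartile range of 0.57, and 1 was more than 2-fold higher and 3 more than 2-fold lower, against 10.8% and 18.7% of all expressed genes. Mrpl13, on chromosome 15, had 150 and 274 TPM (1.83), and Mrpl34, on chromosome 8, had 239 and 107 TPM (0.447). Mrps33, on chromosome 6, had 174 and 77.1 TPM (0.444). Mrpl52, on chromosome 14, had 370 and 220 TPM (0.595), and Mrpl42, on chromosome 10, had 188 and 237 TPM (1.26). The median was 0.19 with reads scaled by library total and -0.19 after the correction for length and GC content. In each of these settings except the last, it lay below that of the cytosolic ribosomal proteins. After the correction the order was the reverse, with -0.31 over the cytosolic members.

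**Figure D5:**
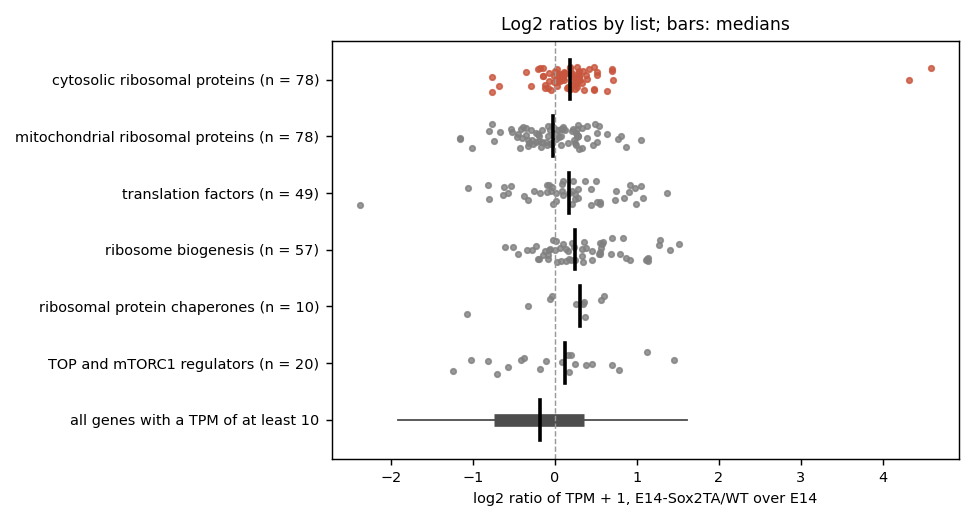
Log2 ratio of TPM + 1 (E14-Sox2TA/WT over E14) of expressed genes, 1 point per gene, by list, with medians as black bars, and for all expressed genes the 25th to 75th percentile (thick line) and the 5th to 95th percentile (thin line). The cytosolic ribosomal proteins (red) are packed around 0.18 apart from Rpl10l and Rpl39l, while the other lists are more widely spread around their medians.

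Near-identical copies make some of these levels uncertain. Of the 76 main members, 35 shared more than 50% of their stretches of 50 nt with another annotated gene, and the median was 48.7%. The 35 had a median log2 ratio of 0.18, as did the other 41. Rpl29, with 66.2% shared among 82 other genes, had the lowest level of the 76. Over the main members, however, the shared percentage had a Spearman correlation of 0.12 with the reads in E14. Rpl34 had fewer reads (5816 and 7633) than its copy Rpl34-ps1. The length assigned to a gene also sets its level. Rps15a, with the longest transcript at 5179 nt, had 30625 and 45567 reads but only 248 and 330 TPM, and Rps20, at 3706 nt, had 39225 and 52651 reads and 473 and 569 TPM. The ratio between the libraries does not rest on that length, and was 1.33 for Rps15a and 1.20 for Rps20.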

How the data were processed

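RNA was sequenced from 1 E14 and 1 E14-Sox2TA/WT teratoma library. For each mm10 gene, the authors deposited unnormalized read counts, FPKM (reads per transcript length and library size) and TPM (rescaled to a fixed sum). The submitters' processing notes name bcl2fastq 2.20.0, Trimmomatic, HISAT2 2.1.0 and StringTie 2.1.3b. StringTie estimates levels from assembled transcripts, so annotated length and multi-mapped reads bear on them. Whether counting used strand is not given in the sources used here.

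The ratio of the deposited TPM was the main measure, with 1 added before taking log2, for genes that reached 10 TPM in 1 library or both (expressed genes). Members and lists were chosen with earlier results of these data known. Named were members past 2-fold, the 5 most abundant, the 5 highest and 5 lowest ratios, members under 10 TPM, members with paralogs, members on chromosomes 8, 15 and X, and in each other list the 3 most abundant genes and the 2 with the largest change. Members outside this rule (Rplp0, Rplp2, Rpl5, Rps6, Rps27a, Rps16, Rps15a, Rps20, Rps18, Rpl12, Rpl18), the genes beside Rps9 and motifs of the start windows were added for their role or after their values were seen. Marker lists of 4 genes each covered neurons, cartilage, gut and endoderm epithelium, skeletal muscle, blood and macrophages, and pluripotent cells. Their counts higher and lower were 0 and 4 (neurons), 1 and 1 of the 2 expressed (cartilage), 4 and 0 (gut), 0 and 4 (muscle), 2 and 1 (blood) and 4 and 0 (pluripotent).

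Alternatives were FPKM, reads scaled by library total, TMM (edgeR 4.0.16, R 4.3.3) or median-of-ratios factors, other pseudocounts and filters, the genes without chromosomes 8, 15 and Y, and a quadratic correction for log2 transcript length and GC content, available for 94.6% of expressed genes. Transcripts came from the GENCODE annotation of GRCm38, positions and start windows from RefSeq GRCm38.p6, for which 45679 of 45777 identifiers matched. Start windows were not used here for 20 members. Scripts were tested on simulated data. The software was scipy 1.17.1, pandas 2.3.3, numpy 2.4.6 and matplotlib 3.10.9 under Python 3.11.15. Some genes are not reported here.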

Additional observations from a re-analysis of the deposited data

Results flagged for a closer look

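Rows of pseudogenes lie outside the comparison of the protein-coding members, and they held reads in both libraries. Of 220 rows named after a member, for 53 members, 182 had at least 1 read. Of all reads on members and pseudogenes they took 2.96% in E14 and 3.39% in E14-Sox2TA/WT (3.37% to 3.41%, counting error only). Of the 68 rows among the expressed genes, 63 were higher in E14-Sox2TA/WT, with a median log2 ratio of 0.64. Among all expressed genes 41% were higher, with a median of -0.18. No median corrected for transcript length was computed for the pseudogene rows. These values were flagged as a signal in rows that the report's comparison leaves out. With them added, the family held 17.4% and 18.9% of the TPM.

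The 3 rows with the most reads were Rpl3-ps1 (21829 and 21173 reads in E14 and E14-Sox2TA/WT, TPM ratio 0.869), Rpl34-ps1 (15833 and 19312 reads, ratio 1.09) and Rps13-ps1 (3782 and 6734 reads, ratio 1.59). Rpl34-ps1, which the table labels protein-coding, was flagged because it exceeded its parent gene, where Rpl34 had 5816 and 7633. It held 77.2% and 76.3% of the summed TPM of the pair, and 33.3% of the 50 nt stretches of Rpl34 are also in Rpl34-ps1. How the reads of the pair were divided between its rows was not tested.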

How the results depend on the processing

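No paired analysis was possible because each group holds 1 library, and for the same reason no library could be left out. Of the main results' 106 values under alternatives, 76 stayed within the order-statistic interval of the median or 1.5 times the count, and 30 were counted as moved. These 30 include every alternative value of the members' share, which was counted as moved without a comparison with an interval. Other scalings moved the medians upwards. The members' median log2 ratio of 0.18 became 0.38 with FPKM, 0.39 with library totals, 0.26 with TMM and 0.26 with median-of-ratios factors. The large subunit had 0.37 with FPKM and 0.38 with library totals, and the small subunit 0.39, 0.39, 0.26 and 0.27 under the same 4 scalings. Translation factors had 0.37 with FPKM, 0.40 with library totals and 0.28 with median-of-ratios factors. The mitochondrial ribosomal proteins turned from -0.03 to 0.17 with FPKM and 0.19 with library totals. Corrections for length alone and for GC content alone, chosen after seeing the data, gave -0.24 (reversed) and 0.25 for the members. The correction for length and GC content gave -0.31 for the members, -0.29 for the large and -0.42 for the small subunit, all reversed, and -0.19 for the mitochondrial ribosomal proteins, and the cause was not tested. The medians of the chaperones (-0.09 after this correction) and of the TOP and mTORC1 regulators (-0.14 without chromosomes 8, 15 and Y) changed sign within their intervals. The number of members past 2-fold was 0 without the members that are or have a paralog in the rule, and at 1.5-fold 6 were higher and 3 lower. The members' share of TPM in E14 and E14-Sox2TA/WT was 17.7% and 20.1% without mitochondrial and hemoglobin genes, 17.4% and 18.9% with pseudogenes, and 6.25% and 7.68% of reads. Of 64 alternative values of single genes, most of them genes with extreme ratios, 55 left their counting interval, 53 of them upwards. A change of direction was looked for only in genes past 2-fold, and 0 were found. Genes with ratios nearer 1 could change direction. With library totals, Rps4x went from 0.919 to 1.06, Rps27a from 0.901 to 1.06 and Rps16 from 0.922 to 1.06.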
